A study of Mus musculus with 14 samples.

Results

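The genes described here build the protein synthesis and protein import machinery of mitochondria. They were taken by name from the count table of natural killer (NK) cells, as every gene symbol that starts with Mrpl or Mrps and a digit (mitochondrial ribosomal proteins), with Timm (translocase of the inner membrane) or with Tomm and a digit (translocase of the outer membrane), plus Top1mt, Tfam, Polrmt, Tufm and Tsfm. This gave 99 of the 10210 listed genes, of which 44 are named for the large ribosomal subunit, 27 for the small subunit, 14 are Timm genes, 9 are Tomm genes and 5 are the added genes. The choice was by name and not by expression value, though earlier results of these data were known when it was made. Only genes listed in the count table could enter.

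NK cells are lymphocytes that kill tumour cells without prior sensitisation. All mice were BALB/c and, per the labels, 8 weeks old. NK cells came from spleens of healthy mice (n = 3), from spleens of females that had been injected with 100000 cells of the 4T1 mammary carcinoma line, carrying green fluorescent protein (GFP), into a mammary fat pad (n = 4), and from the resulting tumours (n = 4). The series text calls the injected line a triple-negative breast cancer model and both spleen groups controls. Tumours were digested with collagenase A and DNase for 20 min at 37 °C, while spleens were crushed and kept on ice for red cell lysis, so tissue and digestion cannot be told apart. The sort kept cells positive for NKp46 and CD45 and left out those with GFP, CD3, CD14, CD31 or EPCAM. Each group is described in the series text as independent replicates, and the labels do not say whether a replicate is 1 animal or which spleen and tumour came from the same animal.

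Mitochondria carry a small circular genome that is packaged by Tfam, relaxed by the topoisomerase Top1mt and transcribed by the polymerase Polrmt. Its messages encode core subunits of the respiratory chain and are read by mitoribosomes, whose proteins (Mrpl and Mrps) are all encoded in the nucleus, with the elongation factors Tufm and Tsfm. These proteins, like most mitochondrial proteins, are made in the cytosol and enter through the TOM complex, small chaperones of the intermembrane space and the TIM23 or TIM22 complexes. Activated NK cells are known to rely on respiration, which depends on this machinery. A name is not always a function. Tomm34 encodes a cytosolic co-chaperone, Timmdc1 an assembly factor of respiratory complex I, and Mrps36 a component of the 2-oxoglutarate dehydrogenase complex.

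The totals of listed counts ran from 559688 (healthy replicate 1) to 1966963 over the 11 libraries. Before TMM scaling, 3 counts were worth 1.53 to 5.36 CPM of these totals. Levels are given as CPM, each count divided by its library's TMM-scaled size. A low-count filter left 8471 genes, among them 93 of the 99 members. Mrpl15, Mrpl19, Mrpl48, Mrps25, Timm21 and Tomm20 did not pass, with between 0 and 8 counts in any library, and get no comparison. Of the marker genes of NK cells, 10 of 10 were listed, and their summed level was 25800 to 30200 CPM in the spleen libraries and 19500 to 24700 CPM in tumour libraries. Summed markers of macrophages, neutrophils, epithelial cells and endothelium were far lower than those of NK cells and stood above all spleen libraries in tumours, whereas those of fibroblasts, T cells, B cells and dendritic cells overlapped the spleens. The 7 listed macrophage and monocyte markers (of 10) summed to 39.3 to 239 CPM in tumours against 9.25 to 28.3 CPM in spleens. The 5 listed neutrophil markers (of 9) summed to 61.5 to 158 against 1.45 to 13.4 CPM, the 2 listed carcinoma or epithelial markers (of 9; Epcam and Cdh1) to 27.7 to 54.9 against 0 to 3.08 CPM, and the 4 listed fibroblast markers (of 9) to 13 to 35.2 against 5.34 to 20.3 CPM. Pecam1, the listed endothelial marker (1 of 7), stood at 139 to 202 CPM in tumours and 41.6 to 94.2 CPM in spleens. The 3 listed T-cell markers (of 8) summed to 64.7 to 106 CPM in tumours and 43.1 to 149 CPM in spleens, the 2 listed dendritic-cell markers (of 8) to 178 to 248 against 149 to 324 CPM, and Cd79b, the listed B-cell marker (1 of 8), to 1.45 to 3.8 against 3.21 to 9.25 CPM. No erythroid marker of the 7 was listed. The part of these cells, and of the lower NK marker sum, in the tumour results below was not tested. In bulk RNA, fewer cells of a type and less RNA per cell cannot be told apart.

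Together the members made up a smaller part of the tumour NK libraries than of those from tumour-bearing spleens. Their summed level was 7384, 6270, 7447 and 7114 CPM in tumour replicates 1 to 4. It was 8791, 7810, 8835 and 8876 CPM in tumour-bearing spleen replicates 1 to 4, so these groups did not overlap. In healthy spleen replicates 1 to 3 it was 6253, 7689 and 8092 CPM, which overlaps the tumour libraries on this TMM scale, where the factor of healthy replicate 1 was 1.168 and those of tumours were 0.9096 to 0.9742. As a plain share of the listed counts, the members made up 0.607% to 0.685% in tumours, 0.725% to 0.81% in healthy and 0.831% to 0.896% in tumour-bearing spleens, with no overlap between the groups. By role, the small-subunit genes summed to 1631 ± 117 CPM (SD, n = 4) in tumours, 2104 ± 153 CPM (n = 4) in tumour-bearing spleens and 1858 ± 317 CPM (n = 3) in healthy spleens. Large-subunit genes summed to 3463 ± 298, 4154 ± 223 and 3577 ± 386 CPM in the same order, and Timm genes to 849 ± 82.7, 1076 ± 90.4 and 850.2 ± 125 CPM. Only for Tomm genes did the range in tumours (885.4 to 1131 CPM) overlap that in tumour-bearing spleens (952.2 to 1130 CPM). These sums are a description, with no test.

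**Figure D1:**
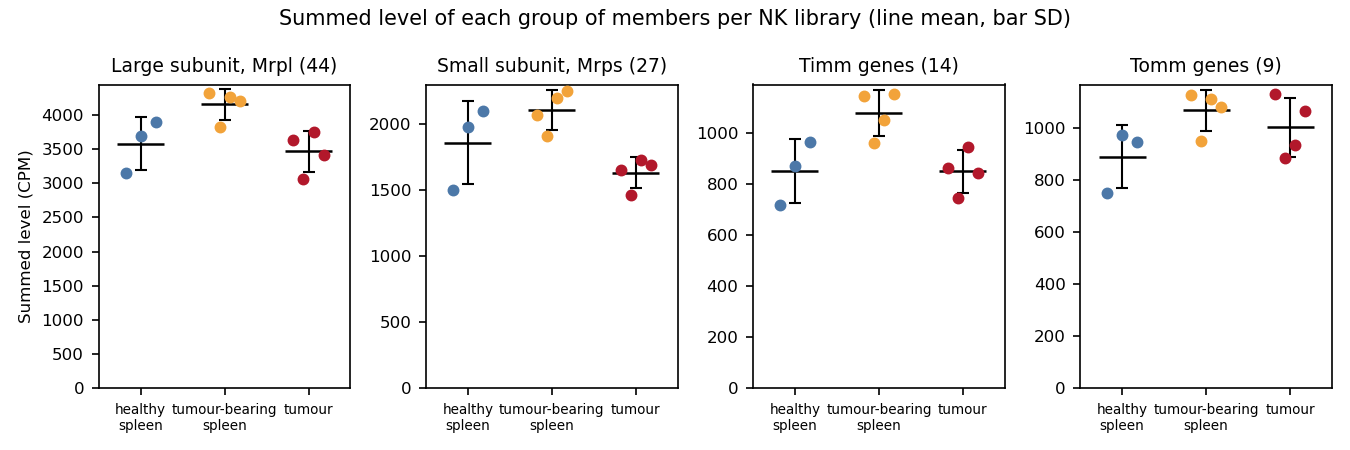
Summed level in CPM of the large-subunit, small-subunit, Timm and Tomm genes in each NK library, with points for libraries, lines for group means and bars for SD. The 4 tumour libraries lie between 1461 and 1726 CPM for the small subunit, below the 1906 to 2250 CPM of tumour-bearing spleens, while healthy replicate 1 is the lowest healthy library in every panel.

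In tumour NK cells against NK cells of tumour-bearing spleens, 24 of the 93 tested members fell and 1 rose. Here a gene counts as fallen or risen at an adjusted p under 0.05 in edgeR's quasi-likelihood test, with Benjamini-Hochberg adjustment over all genes tested. This is 25.8% of members lower and 1.08% higher, beside 13.2% of all 8471 genes lower and 15.8% higher. The median log2 fold change of the members was −0.30, with 71 of 93 below 0, whereas that of all genes tested was 0.00. Most falls were modest, between 1.3-fold and 2.19-fold, and Top1mt fell the most, by 5.69-fold. Every tumour library lay below every tumour-bearing spleen library for 25 members (26.9%, beside 13.3% of all genes), of which 20 passed the test, and above for 1 (1.08%, beside 16.5%). Upper-quartile scaling placed the median of all genes at −0.10 and gave 33 members lower and 0 higher, against 18.1% of all genes lower and 12.9% higher. With tumour-bearing spleen replicates 1 and 2 as the only controls, 10 members were lower (6.34% of all genes), and without tumour replicate 4 there were 15 (10.6% of all genes). Top1mt, Timm10, Mrpl18, Mrpl34, Mrpl40, Mrpl44, Mrpl53, Mrpl58 and Mrps12 kept their call under all 19 alternatives other than a required minimum of a 2-fold change, and the other 16 called members lost theirs under at least 1, which for Mrpl38 was the use of tumour-bearing replicates 1 and 2 as the only controls.

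**Figure D2:**
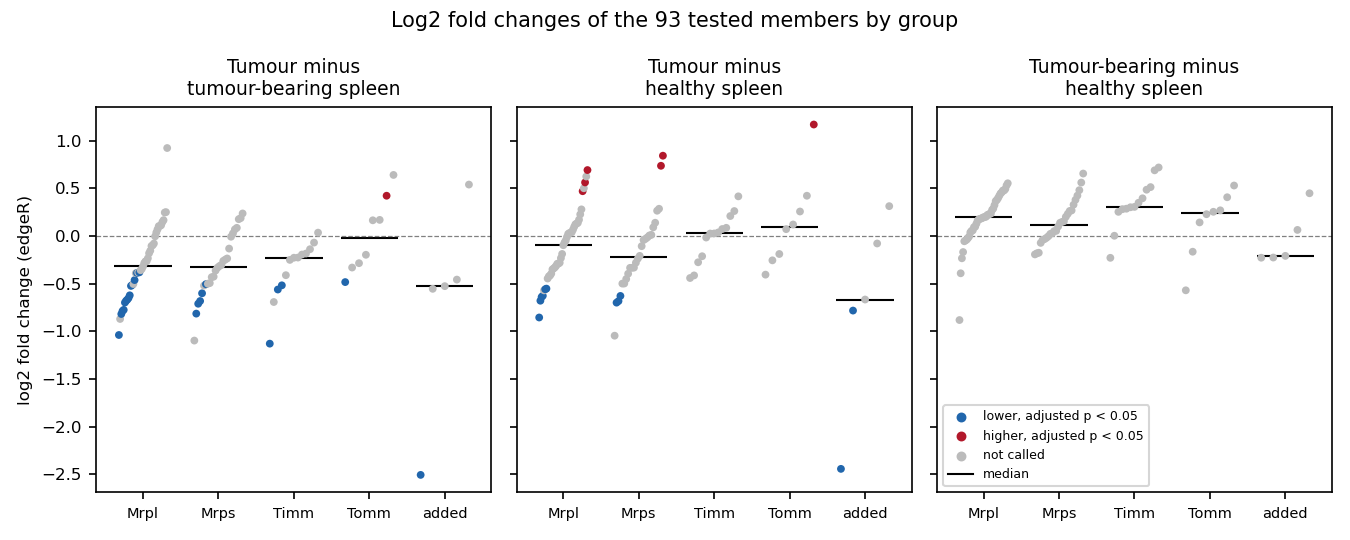
Log2 fold change of each of the 93 tested members in the 3 comparisons, grouped by role, with blue for members called lower, red for called higher, grey for not called and a line for each group's median. In the left panel the medians of the Mrpl and Mrps genes lie near −0.3 (−0.32 for each), and Top1mt is the lowest point in both tumour panels, while no member is called in the right panel.

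Top1mt, the topoisomerase that relaxes mitochondrial DNA, had 5.74, 8.7, 5.41 and 12.4 CPM in tumour replicates 1 to 4. In tumour-bearing spleen replicates 1 to 4 it had 24.4, 50.2, 59.7 and 39.8 CPM, and in healthy replicates 1 to 3 it had 46.2, 39.1 and 42.9 CPM. Both spleen groups lay above every tumour library. Against tumour-bearing spleens it fell by 2.51 on the log2 scale, with an SE of 0.31 (edgeR adjusted p = 3.61e-06). The value was −2.44 ± 0.33 against healthy spleens (edgeR adjusted p = 1.25e-05). The tumour values rest on 6 to 13 counts per library. It was the only member that kept its call under every alternative run, 20 in the former comparison and 18 in the latter, the 2-fold minimum included. The gene lies at chr15:75657035-75678800 on the minus strand (GRCm38, GENCODE M21), and its exons share bases with Gm15945 on the other strand. The strand setting of the counting is not given in the sources used here, so reads of such pairs cannot be told apart. Over the members, 39 share exon bases with a gene on the opposite strand, 11 with a gene on the same strand and 54 with neither. Among the 11 are Mrpl33, Mrpl53, Mrps6, Mrps24 and Timm10b, which were called in a tumour comparison. Their reads may not be their own.

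The other added genes of mitochondrial DNA and elongation showed smaller differences. Polrmt, the RNA polymerase, had 25.4, 36.2, 26.5 and 12.4 CPM in tumours, 26.7, 31.3, 47.4 and 38.3 CPM in tumour-bearing spleens, and 32.4, 44.9 and 47 CPM in healthy spleens. It fell against healthy spleens (log2 fold change −0.78 ± 0.28, edgeR adjusted p = 0.0381) although the groups overlapped, and it did not pass against tumour-bearing spleens (−0.55, adjusted p = 0.113). The call against healthy spleens was lost without healthy replicate 2 or 3 and without tumour replicate 1, 3 or 4. It was also lost in DESeq2 and with the replicate numbers as a block. Tfam, which packages mitochondrial DNA, was low, with 5.71 to 10.1 CPM in tumours, 4.47 to 8.38 CPM in tumour-bearing and 5.78 to 7.49 CPM in healthy spleens, and did not pass in any comparison. The elongation factor Tufm had log2 fold changes of −0.53 and −0.08 against tumour-bearing and healthy spleens, and its exchange factor Tsfm had −0.46 and −0.67. Neither passed the test.

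Of the 41 tested large-subunit genes, 14 fell against tumour-bearing spleens and 0 rose, with a median log2 fold change of −0.32. This is 34.1% lower and 0% higher, beside 13.2% and 15.8% of all genes. The largest difference was that of Mrpl44, a large-subunit protein with an RNase III-like fold. It had 24.6, 15.9, 10.8 and 29.5 CPM in tumours, 39.6, 39.1, 45.3 and 39.8 CPM in tumour-bearing spleens, and 18.5, 42.8 and 41.3 CPM in healthy spleens. The tumour libraries lay below all tumour-bearing ones (−1.04 ± 0.27, adjusted p = 0.00743 in edgeR), while healthy replicate 1 lay among them. Mrpl58, a peptidyl-tRNA hydrolase that frees stalled mitoribosomes, had 99.2, 79.7, 98 and 94.1 CPM in tumours, 167, 132, 187 and 174 CPM in tumour-bearing spleens, and 112, 150.3 and 169 CPM in healthy spleens. No spleen library of either group reached down to the tumour range (−0.82 ± 0.15, adjusted p = 0.000366 against tumour-bearing spleens).

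Mrpl53 was at 71.3, 42, 47.5 and 62.8 CPM in tumours, 101, 91, 91.1 and 103 CPM in tumour-bearing spleens, and 81.7, 92.6 and 94.9 CPM in healthy spleens, again without overlap. Mrpl38 was at 35.2, 27.5, 32.5 and 34.2 CPM in tumours and between 45.7 and 70.9 CPM in tumour-bearing spleens, with 32.4, 55.6 and 58.6 CPM in healthy spleens, where replicate 1 lay within the tumour range. Their log2 fold changes against tumour-bearing spleens were −0.78 ± 0.16 and −0.79 ± 0.20 (edgeR adjusted p = 0.00108 and 0.00583). Mrpl18, Mrpl34 and Mrpl40 also fell (−0.52, −0.67 and −0.65). The other 7 fell by 0.38 to 0.70 on the log2 scale. Of these, Mrpl36 lost its call without tumour replicate 2, and Mrpl22 without tumour-bearing replicate 4 or tumour replicate 3. Mrpl33, with 316 to 432 CPM in tumours and 430.3 to 495 CPM in tumour-bearing spleens, and Mrpl43 lost theirs without tumour-bearing replicate 3 or 4 or tumour replicate 1, 2 or 4. For Mrpl46 it was tumour-bearing replicate 3 or 4 or tumour replicate 2 or 4, for Mrpl47 tumour-bearing replicate 1, 2 or 3 or tumour replicate 3 or 4, and for Mrpl16 tumour-bearing replicate 2, 3 or 4 or any tumour replicate. In DESeq2 the calls of Mrpl16, Mrpl43, Mrpl46 and Mrpl47 were also lost. That of Mrpl46 was lost with a correction for GC content and length of the transcript end too. Large-subunit genes with values above 0 that did not pass included Mrpl13 (0.25), Mrpl52 (0.07) and Mrpl54 (0.25). Mrpl24, among the 3 large-subunit genes with the highest levels, had 144 to 211.5 CPM in tumours, 181 to 202.5 CPM in tumour-bearing and 219 to 237 CPM in healthy spleens and did not pass in any comparison.

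Of the 26 tested small-subunit genes, 5 fell and 0 rose against tumour-bearing spleens, with a median of −0.32. The shares were 19.2% and 0%, beside 13.2% of all genes lower and 15.8% higher. Mrps12, the protein at the decoding centre of the small subunit, had 37.7, 27.5, 40.3 and 39.9 CPM in tumours, 61.7, 54.1, 70 and 75.2 CPM in tumour-bearing spleens, and 33.9, 51.9 and 50.4 CPM in healthy spleens. The tumour libraries lay below every tumour-bearing library (−0.82 ± 0.18, edgeR adjusted p = 0.00191) and overlapped the healthy ones. Mrps21 had 109, 119, 152 and 123 CPM in tumours against 192, 172, 217 and 245 CPM in tumour-bearing spleens (−0.71 ± 0.18, adjusted p = 0.00583), with 97.1, 175 and 196 CPM in healthy spleens. Mrps26 had 132, 145, 169 and 160 CPM in tumours, below all tumour-bearing (194 to 289 CPM) and all healthy libraries (189.5 to 269 CPM). Mrps24 (−0.60) and Mrps35 (−0.51) completed the list. The calls of Mrps21, Mrps24 and Mrps26 were lost with tumour-bearing replicates 1 and 2 as the only controls. That of Mrps35 was lost without any of tumour replicates 1 to 4 in turn, without tumour-bearing replicate 1 or 3, and in DESeq2. The paralogs Mrps18a and Mrps18c, which encode related proteins of the S18 family, the former placed in the large subunit despite its name, had log2 fold changes of −0.43 and 0.09, and neither passed.

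**Figure D3:**
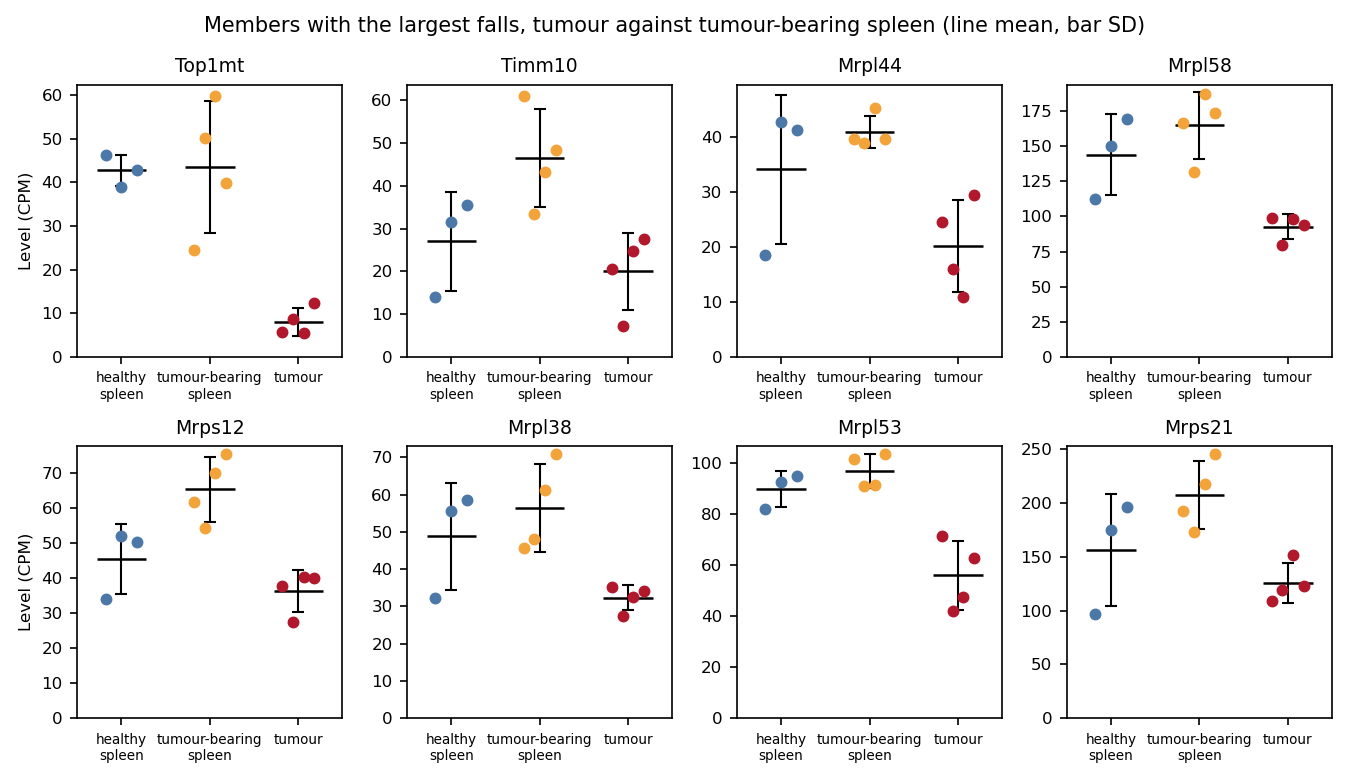
Level in CPM of the 8 members with the largest falls in tumour NK against tumour-bearing spleen NK, with points for libraries, lines for group means and bars for SD. For each gene the 4 tumour libraries lie below the 4 tumour-bearing spleen libraries, and Top1mt shows the widest gap, with 5.41 to 12.4 CPM against 24.4 to 59.7 CPM.

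The sequences before the starts of 4 of these genes are shown because members of this machinery are known targets of the factors GABP (an ETS-family factor) and NRF1, and matches to their core letters can be seen in place. RefSeq sequences of GRCm38.p6 were matched by symbol for 86 of the 99 members, not including Top1mt. Each run is the 250 bases upstream of the start, read 5′ to 3′ on the gene's strand, and capitals mark a match on either strand to the ETS core CCGGAAG or to the NRF1 core, searched as GCGC, any base, T and GCGC in a row. Timm10 (chr2:84826771-84827020, plus strand), Mrpl58 (chr11:115403502-115403751, plus strand) and Mrpl53 (chr6:83108858-83109107, plus strand) hold the ETS core, and Mrpl44 (chr1:79775768-79776017, plus strand) holds the NRF1 core. All 4 genes shown hold a match, but they are not the 4 with the largest falls. Mrps12, which fell more than Mrpl53, holds neither core and is not shown. Mrps21 holds the NRF1 core, and Mrpl38, like Top1mt, had no sequence matched. The 4 thus do not stand for the members, whose shares are given below.
Timm10: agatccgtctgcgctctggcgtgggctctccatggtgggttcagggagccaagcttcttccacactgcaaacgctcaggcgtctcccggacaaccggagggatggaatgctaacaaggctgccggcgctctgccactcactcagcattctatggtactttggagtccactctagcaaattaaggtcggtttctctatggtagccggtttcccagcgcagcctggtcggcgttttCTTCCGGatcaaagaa
Mrpl58: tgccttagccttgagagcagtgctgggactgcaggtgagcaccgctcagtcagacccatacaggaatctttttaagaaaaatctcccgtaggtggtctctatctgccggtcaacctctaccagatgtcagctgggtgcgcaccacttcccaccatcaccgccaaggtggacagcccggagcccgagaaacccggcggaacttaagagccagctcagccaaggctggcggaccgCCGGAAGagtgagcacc
Mrpl53: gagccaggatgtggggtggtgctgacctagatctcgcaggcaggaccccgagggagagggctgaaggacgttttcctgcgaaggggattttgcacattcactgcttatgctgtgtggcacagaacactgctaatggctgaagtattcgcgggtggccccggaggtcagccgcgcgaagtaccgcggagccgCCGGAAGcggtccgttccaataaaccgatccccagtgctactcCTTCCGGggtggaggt
Mrpl44: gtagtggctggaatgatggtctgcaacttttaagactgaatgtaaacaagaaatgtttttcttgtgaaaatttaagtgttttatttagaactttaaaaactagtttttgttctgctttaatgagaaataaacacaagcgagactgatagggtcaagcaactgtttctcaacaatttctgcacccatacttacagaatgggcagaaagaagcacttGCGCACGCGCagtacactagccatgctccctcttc
The ETS core was found in 27 of the 86 members (31.4%) and in 18.7% of the promoters of all genes tested. It was also in 28.3% of those of cytosolic ribosomal protein genes and in 18.8% of those of oxidative phosphorylation subunits. It was in 8 of 21 members that fell against tumour-bearing spleens (38.1%) and in 17 of 61 that were not called (27.9%). The NRF1 core was in 9 members (10.5%) and in 10.8% of all. A match of letters is a description and shows no binding.

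Among the 13 tested Timm genes, 3 fell against tumour-bearing spleens and 0 rose (23.1% and 0%). All genes gave 13.2% lower and 15.8% higher. For 12 of the 13 Timm genes the log2 fold change was below 0. Timm10, which with Timm9 forms a chaperone that escorts membrane proteins across the intermembrane space, had 20.5, 7.25, 24.7 and 27.6 CPM in tumours. It had 61, 33.5, 43.2 and 48.5 CPM in tumour-bearing spleens and 13.9, 31.6 and 35.5 CPM in healthy spleens. The fall of 2.19-fold against tumour-bearing spleens (−1.13 ± 0.29, edgeR adjusted p = 0.00786) left no overlap, but the lowest tumour library held only 5 counts, and the healthy libraries overlapped the tumour range (−0.44, adjusted p = 0.344). Timm10b, a small chaperone bound to the TIM22 complex, fell by 0.56 on the log2 scale (adjusted p = 0.0229). Timm50, the receptor that passes presequences to TIM23, fell by 0.52 (adjusted p = 0.0269), with 40.2, 43.5, 61.3 and 39.9 CPM in tumours and 60.8 to 71 CPM in tumour-bearing spleens, so tumour replicate 3 overlapped. Both calls were lost without tumour-bearing replicate 4, tumour replicate 2 or tumour replicate 4, and that of Timm50 also without tumour-bearing replicate 3 or tumour replicate 1.

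The remaining Timm genes did not pass the test in any comparison of the fit of all 11 libraries. For Timm9, the partner of Timm10, the log2 fold change against tumour-bearing spleens was −0.41, and for the other small chaperones Timm8b and Timm13 it was −0.23 and −0.25. The channel subunits gave −0.07 (Timm23), −0.23 (Timm17a) and −0.20 (Timm17b). Timm44, which tethers the import motor, gave −0.18, Timm22, the channel for carrier proteins, −0.69, and its partner Timm29 0.03. Timmdc1 gave −0.14. Against healthy spleens the 13 Timm genes had a median of 0.03, with 8 of 13 above 0. In edgeR 0 passed (0 also at an unadjusted p under 0.05), beside 14% of all genes lower and 16.5% higher.

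The 8 tested Tomm genes showed no common direction against tumour-bearing spleens, with 4 above and 4 below 0. In edgeR 1 rose and 1 fell (12.5% each), beside 15.8% of all genes higher and 13.2% lower. Tomm34, the cytosolic co-chaperone, was the single member that rose, with 101, 87, 69.2 and 94.1 CPM in tumours and 56.4, 71.5, 71 and 60.8 CPM in tumour-bearing spleens. These ranges overlapped, and the call (0.42 ± 0.15, edgeR adjusted p = 0.0458) was lost under 16 of 20 alternatives, including the absence of any healthy replicate, of tumour-bearing replicate 1, 3 or 4, or of tumour replicate 1, 2 or 4. Tomm5, a small subunit of the complex, fell by 0.48 on the log2 scale (adjusted p = 0.0205), a call lost without tumour-bearing replicate 3 or tumour replicate 4. Its fellow small subunits Tomm6 and Tomm7 gave −0.29 and 0.17, the pore Tomm40 −0.33, and the receptors Tomm22 and Tomm70a −0.20 and 0.16, none of which passed.

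Against NK cells of healthy spleens the members were divided. Of the 93, 11 fell and 6 rose, which is 11.8% and 6.45%, beside 14% of all genes lower and 16.5% higher. The median was −0.08 for members and 0.02 for all genes, with 54 of 93 members below 0. Upper-quartile scaling gave 14 lower and 5 higher, with 18.5% of all genes lower and 13.6% higher. A correction for GC content and length of the transcript end gave 27 lower and 5 higher (19.9% and 16% of all genes). The count also moved with single libraries. It was 19 lower without healthy replicate 1 (16.2% of all genes lower). Without healthy replicate 2 it was 5 lower and 2 higher (9.06% and 12.2% of all genes). Without healthy replicate 3 it was 3 lower (9.13%), and without tumour replicate 4 it was 7 lower (11.5%). In this comparison 9 members fell that also fell against tumour-bearing spleens, namely Mrpl38, Mrpl40, Mrpl44, Mrpl46, Mrpl53, Mrpl58, Mrps26, Mrps35 and Top1mt. They are 36% of the 25 members called there and 52.9% of the 17 called here, and both comparisons use the same 4 tumour libraries. The overlap was not counted over all genes tested, so it does not set the members apart from other genes.

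Among the ribosomal proteins that fell against healthy spleens, Mrpl53 (−0.68 ± 0.17, edgeR adjusted p = 0.00585) kept its call in the absence of each single library. Mrpl58 (−0.64), Mrps26 (−0.63) and Mrps35 (−0.70) lost theirs only without healthy replicate 3, apart from the 2-fold minimum, and Mrpl40 (−0.56) only without healthy replicate 2. Mrps31, with 16.4, 21.7, 13.2 and 11.4 CPM in tumours and 23.1, 25.7 and 23.9 CPM in healthy spleens, fell by 0.68, and its call was lost in 10 of 18 alternatives, among them the absence of healthy replicate 2 or 3, tumour-bearing replicate 2 or 3, or tumour replicate 1, 3 or 4. Mrpl44 fell by 0.86, a call lost without healthy replicate 2 or 3 or tumour replicate 2 or 3. It was also lost in DESeq2 and with the replicate numbers as a block. Mrpl38 and Mrpl46 fell by 0.63 and 0.55. Both calls were lost in DESeq2 and without healthy replicate 2 or 3 or tumour replicate 2 or 4. That of Mrpl38 was also lost without tumour replicate 1 or 3, and that of Mrpl46 without healthy replicate 1.

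The 6 members that rose against healthy spleens were 5 ribosomal proteins and Tomm40l. Mrps28, a small-subunit protein, had 41, 42, 34.3 and 38 CPM in tumours, 35.8, 31.8, 31.9 and 36.2 CPM in tumour-bearing spleens, and 15.4, 26.7 and 19 CPM in healthy spleens. Every tumour library exceeded every healthy one (0.84 ± 0.22, edgeR adjusted p = 0.00604), and the call held in the absence of each single library. Mrps6 had 76.2, 75.3, 65.5 and 53.2 CPM in tumours, 52.6, 54.7, 64.3 and 66.5 CPM in tumour-bearing spleens, and 35.4, 36.4 and 48.7 CPM in healthy spleens (0.74 ± 0.19, adjusted p = 0.00616). Its exons share bases with those of Slc5a3 on the same strand, so its reads may not be its own. Mrpl54 had 99.2, 94.2, 139 and 111 CPM in tumours and 57, 63.1 and 85.8 CPM in healthy spleens (0.69 ± 0.19, adjusted p = 0.00816). For both genes the call was lost without healthy replicate 2.

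Tomm40l, a paralog of the import pore Tomm40, had 9.84, 11.6, 10.2 and 9.51 CPM in tumours, 5.34, 7.81, 6.18 and 6.51 CPM in tumour-bearing spleens, and 3.08, 5.35 and 4.13 CPM in healthy spleens. The tumour libraries lay above both spleen groups, with a rise of 2.25-fold against healthy spleens (1.17 ± 0.37, edgeR adjusted p = 0.0233) and a value of 0.64 that did not pass against tumour-bearing spleens (adjusted p = 0.128). The call rests on 8 to 17 counts per tumour library, and the 3.08 CPM of healthy replicate 1 are worth fewer than 3 counts. It was lost in DESeq2 and without healthy replicate 1 or 3. Tomm40 itself gave −0.19 against healthy spleens. Mrpl52 (0.56) and Mrpl13 (0.47) also rose. The call of Mrpl52 was lost without healthy replicate 1 or 2 or tumour replicate 3. That of Mrpl13 was lost without healthy replicate 2 or 3 or tumour replicate 1 or 3. It was also lost with upper-quartile scaling and with the correction for GC content and length.

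**Figure D4:**
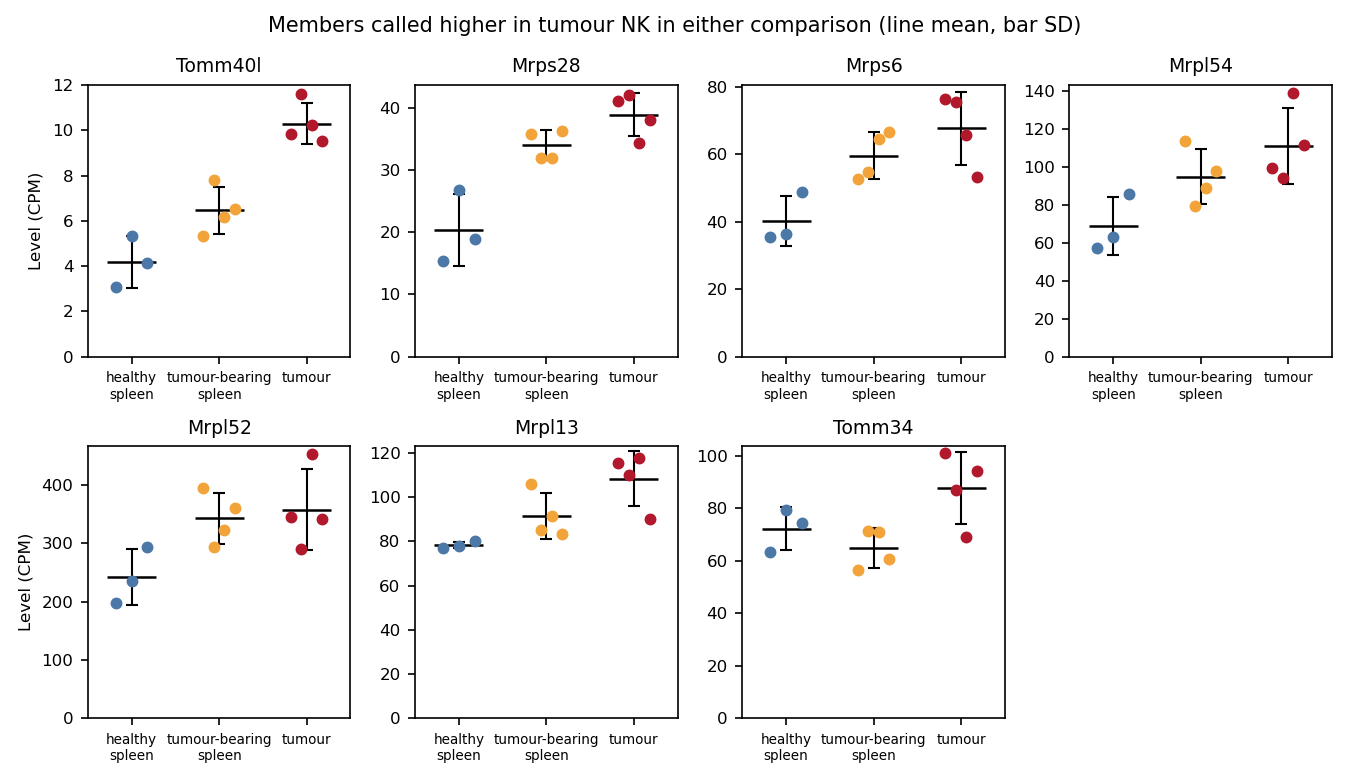
Level in CPM of the 7 members called higher in tumour NK, 6 against healthy spleens and Tomm34 against tumour-bearing spleens, with points for libraries, lines for group means and bars for SD. For Mrps28 the tumour-bearing spleens, at 31.8 to 36.2 CPM, lie between the healthy libraries and most tumour libraries, and for Tomm34 the tumour and tumour-bearing ranges overlap.

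Between the spleens, no member passed the test in edgeR (0 higher and 0 lower of 93), beside 1.23% of all genes higher and 0.354% lower. At an unadjusted p under 0.05, 14 members were higher in tumour-bearing spleens and 0 lower (15.1% and 0%), where all genes gave 6.74% higher and 4.49% lower, and DESeq2 also called 0. The median log2 fold change was 0.20 for members and 0.00 for all genes, with 70 of 93 above 0. It was 0.13 without healthy replicate 1, which has the smallest total, and 0.08 with the correction for GC content and length. Earlier results on these data had shown a split of the spleen libraries by GC content, with healthy replicate 1 and tumour-bearing replicates 1 and 2 on one side. In a fit of the 7 spleen libraries alone with that split as a block, 13 of 92 members rose in tumour-bearing spleens and 0 fell (14.1% and 0%), beside 5.35% of 8282 genes higher and 2.99% lower. The same 7 libraries without the block gave 0 and 0. The split was found in these same libraries, so the adjusted p-values of the blocked fit may be too small. Healthy replicate 1 is the only healthy library on its side. The comparison between the spleens and that of tumour with tumour-bearing spleen NK share the tumour-bearing libraries. A high value there raises the former and lowers the latter.

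The 13 members called between the spleens, in the blocked fit only, were Mrpl4, Mrpl12, Mrpl18, Mrpl33, Mrpl34, Mrpl52, Mrps6, Mrps12, Mrps21, Timm10, Timm13, Tomm6 and Tufm. Timm13, a small intermembrane-space chaperone, had 185, 197 and 211 CPM in healthy spleens and 296, 237, 276 and 323 CPM in tumour-bearing spleens. These groups did not overlap, and the blocked log2 fold change was 0.55 ± 0.12 (edgeR adjusted p = 0.00173), against 0.51 (adjusted p = 0.123) in the fit of all 11 libraries. Mrpl33 had 289.7, 360.1 and 353 CPM in healthy spleens and 495, 430.3, 485 and 459 CPM in tumour-bearing spleens, also without overlap (0.50 ± 0.11 blocked, adjusted p = 0.00204). Tomm6, a small TOM subunit, had 168, 298 and 305 CPM against 357, 266, 379 and 378 CPM, where tumour-bearing replicate 2 overlapped (0.51 ± 0.12 blocked, adjusted p = 0.00628).

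**Figure D5:**
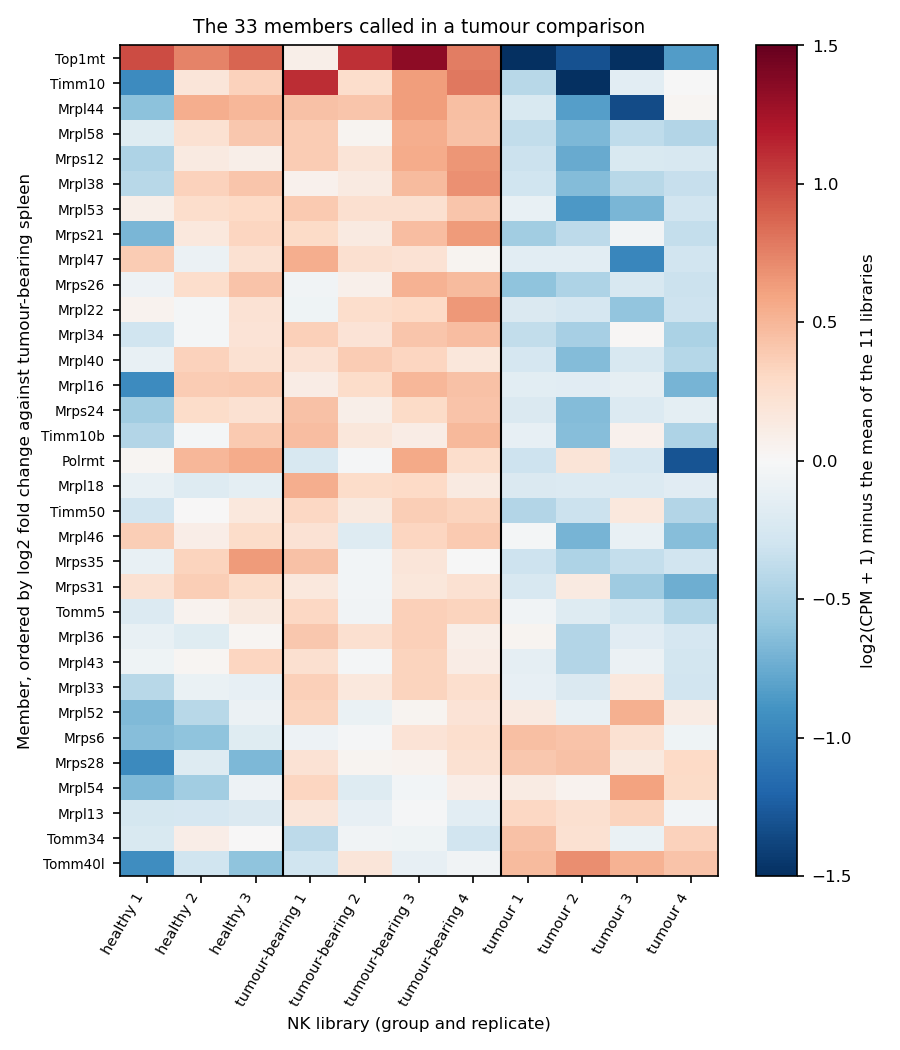
Log2(CPM + 1) of the 33 members called in either tumour comparison in each of the 11 NK libraries, minus the member's mean over the libraries, with blue for lower and red for higher values and rows ordered by the fold change against tumour-bearing spleens. The upper rows are mostly blue in the 4 tumour libraries and red in the 4 tumour-bearing spleen libraries, and healthy replicate 1 is blue in most rows.

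Values of 2 other protein sets are given beside those of the members. Of 76 tested cytosolic ribosomal protein genes, 13 rose and 1 fell in tumours against tumour-bearing spleens (17.1% and 1.32%, median 0.28), and 21 rose and 0 fell against healthy spleens (27.6% and 0%, median 0.43). All genes gave 15.8% higher and 13.2% lower in the first comparison and 16.5% and 14% in the second, so the share that rose against tumour-bearing spleens was near that of all genes. Of 76 tested nuclear genes for oxidative phosphorylation subunits, 6 rose and 4 fell against tumour-bearing spleens (7.89% and 5.26%, median −0.09), and 14 rose and 1 fell against healthy spleens (18.4% and 1.32%, median 0.17). The members' own medians were −0.30 and −0.08. The difference between the sets was not tested.

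The rest of the pathway was read from lists written by function, whose shares are to be read against the same 13.2% lower and 15.8% higher of all genes against tumour-bearing spleens and 14% and 16.5% against healthy spleens. Of 34 tested genes of mitochondrial RNA processing and ribosome assembly, 10 fell and 1 rose against tumour-bearing spleens (29.4% and 2.94%), and 8 fell and 1 rose against healthy spleens (23.5% and 2.94%). Mrm2, which methylates mitochondrial ribosomal RNA, had 4.92, 7.25, 3.61 and 3.8 CPM in tumours against 5.34, 18.4, 20.1 and 15.2 CPM in tumour-bearing spleens. It fell by 1.70 on the log2 scale (edgeR adjusted p = 0.00322), although tumour-bearing replicate 1 overlapped. Mtg2, a GTPase of large-subunit assembly, had 29.5, 23.2, 36.1 and 28.5 CPM in tumours, 63.3 to 81 CPM in tumour-bearing spleens and 61.6 to 84.2 CPM in healthy spleens, without overlap (−1.24 ± 0.17, adjusted p = 1.75e-05). Nsun4, which methylates ribosomal RNA of the small subunit, rose, with 26.2, 18.8, 29.5 and 29.5 CPM in tumours against 10.7 to 15.9 CPM in tumour-bearing spleens (1.06 ± 0.24, adjusted p = 0.00193).

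Of 12 tested genes of mitochondrial DNA upkeep and transcription, 4 fell and 1 rose against tumour-bearing spleens (33.3% and 8.33%), and 3 fell and 1 rose against healthy spleens (25% and 8.33%). Polg2, the accessory subunit of the mitochondrial DNA polymerase, had 56.6, 53.6, 46.9 and 48.5 CPM in tumours, 13, 15.1, 14.9 and 11.6 CPM in tumour-bearing spleens, and 10.8, 12.8 and 11.6 CPM in healthy spleens. This rise (1.89 ± 0.19, edgeR adjusted p = 2.56e-07) ran opposite to Top1mt and held under all 20 alternatives. Mgme1, a nuclease of mitochondrial DNA replication, fell by 1.33 (adjusted p = 0.000768), with 7.22 to 14.3 CPM in tumours and 23.2 to 31.8 CPM in tumour-bearing spleens. Mterf1a, a transcription termination factor, fell by 1.69 (adjusted p = 0.00999), with 0 to 2.85 CPM in tumours and 5.34 to 7.96 CPM in tumour-bearing spleens, a call lost with tumour-bearing replicates 1 and 2 as the only controls.

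Of 17 tested genes for mitochondrial aminoacyl-tRNA synthesis, 0 rose and 2 fell against tumour-bearing spleens, Gatc (−0.91) and Cars2 (−0.46), which is 11.8% and near the share of all genes. Against healthy spleens 4 fell (23.5%), led by Pars2 (−2.14) and Gatc (−1.04). Pars2 was at 1.45 to 2.46 CPM in tumours, near or under the worth of 3 counts, and at 8.25 to 11.2 CPM in healthy spleens. The call of Gatc against healthy spleens was lost without healthy replicate 2. Cars2 lost both calls in DESeq2, with the replicate numbers as a block, and without tumour replicate 2, 3 or 4 or healthy replicate 2 or 3. Against tumour-bearing spleens the Cars2 call was also lost with the correction for GC content and length and without tumour-bearing replicate 2, 3 or 4. Of 8 tested initiation, elongation and release factors, 0 rose and 0 fell in edgeR against tumour-bearing spleens (1 lower at an unadjusted p under 0.05), and 1 (12.5%), Mtif2, fell against healthy spleens (−0.47), a call lost in 10 of 18 alternatives, including the absence of any healthy replicate, of tumour-bearing replicate 2, or of tumour replicate 2, 3 or 4. Of 4 tested ribosomal proteins under other names, 1 (25%) fell against tumour-bearing spleens, Gadd45gip1, a large-subunit protein (−1.29 ± 0.31, adjusted p = 0.00416), a call lost with tumour-bearing replicates 1 and 2 as the only controls.

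Of 27 tested genes for the import motor, processing peptidases and matrix chaperones, 1 rose and 3 fell against tumour-bearing spleens (3.7% and 11.1%), and 4 rose and 2 fell against healthy spleens (14.8% and 7.41%), none of these shares being above that of all genes. Hspa9, the matrix Hsp70 that drives import, had 102, 91.3, 78.2 and 83.7 CPM in tumours, 45.8 to 63.3 CPM in tumour-bearing spleens and 37 to 47.9 CPM in healthy spleens, and the tumour libraries lay above all others (0.72 ± 0.15, edgeR adjusted p = 0.00137). Its nucleotide exchange factor Grpel2 (−1.39) and the intermembrane-space oxidoreductase Chchd4 (−0.77) fell, calls that were lost without tumour replicate 1 or 4, for Grpel2 also without tumour replicate 3, tumour-bearing replicate 4 or healthy replicate 2, and for Chchd4 also without tumour replicate 2 or tumour-bearing replicate 2 or 3. Both calls were also lost in DESeq2, and that of Grpel2 with the replicate numbers as a block. Grpel2 was low, with 1.64 to 4.35 CPM in tumours and 5.15 to 10.05 CPM in tumour-bearing spleens. Against healthy spleens Clpp, a matrix protease, fell by 0.71. Dnlz, a chaperone of Hspa9, fell by 0.82, a call lost in DESeq2 and with the replicate numbers as a block. It was also lost in the absence of any healthy replicate, of tumour-bearing replicate 2 or 3, or of tumour replicate 1, 2 or 4. Hspe1, the co-chaperonin of matrix protein folding, was the single gene of all these lists that passed between the spleens, with 272, 203, 172 and 174 CPM in tumour-bearing and 131, 104 and 89.1 CPM in healthy spleens (0.94 ± 0.18, adjusted p = 0.00695), a call lost without healthy replicate 2 or 3.

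Of 14 tested regulators known to act on mitochondrial genes, 5 rose and 1 fell against tumour-bearing spleens (35.7% and 7.14%), and 5 rose and 2 fell against healthy spleens (35.7% and 14.3%). Atf4, the factor of the integrated stress response, had 770, 842, 685 and 740 CPM in tumours, 332, 373, 422 and 310 CPM in tumour-bearing spleens, and 321, 359 and 348 CPM in healthy spleens, a rise of 1.08 ± 0.13 (edgeR adjusted p = 4.06e-06) without overlap. Myc, which drives ribosome and mitochondrial gene expression, had 98.4, 55.1, 58.9 and 89.4 CPM in tumours and 34.6 to 52.8 CPM in tumour-bearing spleens (0.83 ± 0.21, adjusted p = 0.00473), a call lost with the correction for GC content and length. Esrra, the nuclear receptor that with PGC-1 coactivators activates respiratory genes, had 71.3, 73.9, 60.7 and 83.7 CPM in tumours, 83.1, 121, 131 and 125 CPM in tumour-bearing spleens, and 112, 122 and 154 CPM in healthy spleens. It fell by 0.68 and 0.85 on the log2 scale (adjusted p = 0.00385 and 0.00111), the former call being lost with tumour-bearing replicates 1 and 2 as the only controls. The subunits of GABP did not share a direction. Gabpb2 fell against healthy spleens by 0.80 and gave −0.41 (adjusted p = 0.077) against tumour-bearing spleens. Gabpb1 had 72.1, 44.9, 44.5 and 69.4 CPM in tumours, 28.3 to 35.1 CPM in tumour-bearing and 19 to 34.8 CPM in healthy spleens. It rose by 0.83 ± 0.21 and 0.99 ± 0.24 (edgeR adjusted p = 0.00589 and 0.00422), the former call being lost with tumour-bearing replicates 1 and 2 as the only controls. Gabpa, the DNA-binding subunit, gave −0.16 and −0.17 and did not pass. Nrf1, the gene of the factor NRF1, gave 0.09 and 0.08 and did not pass either. Gabpa, Gabpb1 and Nrf1 were named after their values were seen.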

How the data were processed

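The authors deposited raw counts per gene symbol for 11 NK libraries of 3' ends of polyA RNA, made, per the labels' protocols, by a method of the Amit laboratory. STAR 2.4.2a, HTSeq, bcl2fastq and the build mm10 are named in the submitters' processing notes. The annotation, the strand setting and any use of molecular identifiers are not given in the sources used here. Between 1 pair of column names of the deposited count table, tumour replicates 3 and 4, spaces stood in place of a tab, and columns were read by position.

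Genes were filtered with filterByExpr, scaled by TMM (factors 0.9096 to 1.168) and fitted in edgeR 4.0.16 (R 4.3.3) by quasi-likelihood with robust estimation and the group as the only term, with calls where the p after Benjamini-Hochberg adjustment over 8471 genes was under 0.05. The fit was run on counts simulated from its own estimates of spread. That simulation held no split of libraries and no effect of GC content, so it does not bear on those. Alternatives were upper-quartile and RLE scaling, DESeq2 1.42.0, no filter, a 2-fold minimum, a replicate block, an offset for GC content and length of the transcript end (500 bases, GENCODE M21), each library left out, and either side of a known split of the spleen libraries. Named with values are the added, Timm and Tomm genes, in each comparison up to 8 called members per direction with the largest change, the 3 highest members per role, paralogs, and up to 2 called genes per direction of each pathway list. Other members were named after their values were seen, where a count or a stability statement needed it. Members and lists were chosen with earlier results of these data known. P-values weigh each group difference against the spread between these libraries. The labels do not say whether a library stands for 1 animal.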

Additional observations from a re-analysis of the deposited data

Results flagged for a closer look

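In groups of 4 libraries, the highest or lowest library of a named gene was compared with the spread of the other 3 by Dixon's criterion at its 95% level. Of 140 groups checked, 7 held a library that stood apart, where chance gives about 1 in 20 (5%). Tumour replicate 2, with the smallest total of the tumour libraries, was the low library in 4 of them. There Mrps24 was at 172.4 CPM while the other tumour libraries were at 233.6 to 244.3 CPM, Timm17b at 88.39 against 109.8 to 114.1 CPM, Timm8b at 55.07 against 78.16 to 82.8 CPM, and Mterf1a at 0 (0 counts) against 2.405 to 2.852 CPM. Timm50 was high in tumour replicate 3, at 61.33 against 39.93 to 43.47 CPM. Among tumour-bearing spleens, Mrpl44 was high in replicate 3, at 45.29 against 39.07 to 39.78 CPM, and Tomm5 was low in replicate 2, at 72 against 92.99 to 95.74 CPM. The calls of Mrps24, Mrpl44 and Mterf1a against tumour-bearing spleens held without the library named here for each, as did that of Tomm5, and Timm50 kept its call without tumour replicate 3.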

How the results depend on the processing

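No named gene that was called reversed its direction under any alternative. Against tumour-bearing spleens, 24 members were lower, beside 13.2% of all genes. The count was 33 with upper-quartile scaling (18.1% of all genes) and 25 with RLE scaling (13.6%). Without a filter it was 25 (12.2%), with the GC and length offset 27 (17.7%), and with DESeq2 19 (9.12%). The 2-fold minimum left 1 (0.673%). With tumour-bearing replicates 1 and 2 as the only controls it was 10 (6.34%), and with replicates 3 and 4 it was 32 (15.5%). Leaving out single libraries gave 15 to 29 (9.69% to 15.8%). The count higher was 1, beside 15.8% of all genes. It was 0 with upper-quartile scaling, no filter, the 2-fold minimum, DESeq2 or replicates 1 and 2 as the only controls (3.94% to 13.6% of all genes). It was 2 with the offset (15%) or with replicates 3 and 4 (17.1%), and 0 to 2 without single libraries (12.6% to 16.7%). Against healthy spleens, 11 members were lower, beside 14% of all genes. The count was 1 with the 2-fold minimum (1.06% of all genes), 27 with the offset (19.9%) and 6 with DESeq2 (9.64%). Without single libraries it was 3 to 19 (9.06% to 16.2%). The 6 higher (16.5% of all genes) became 0 with the 2-fold minimum (4.54%) and 2 to 7 without single libraries (12.2% to 18%). Between the spleens, 13 were higher with the split as a block (5.35% of all genes) and 0 under the other alternatives. The fit of the 7 spleen libraries without a block was chosen after seeing the data. The cause of these moves was not tested, and the 2-fold minimum by construction removes small changes. With the replicate numbers as a block, 25 members were lower and 0 higher against tumour-bearing spleens, beside 13.9% and 17.1% of all genes. Against healthy spleens that block gave 9 and 6, beside 13.9% and 17.3%. Tumour-bearing spleen and tumour libraries of the same number correlated at −0.047, 0.288, 0.002 and 0.211 in their deviations, and not every library correlated best with its own number, so the numbers were not taken as pairs. Of the members called against tumour-bearing spleens, 13 of 25 kept their call without each single library, and 3 of 17 against healthy spleens. Calls of members and of genes of the pathway lists below about 10 counts per library, such as Top1mt and Pars2 in tumours, are limited by depth.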
